A study of Mus musculus with 63 samples.

Results

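The chemokine genes Ccl2, Ccl3, Ccl4, Ccl5, Ccl7, Ccl12, Cxcl1, Cxcl10, Cxcl12 and Cx3cl1 were followed through RNA sequencing of organotypic entorhino-hippocampal tissue cultures, in which a slice holding the hippocampus and the entorhinal cortex matures in a dish. These 10 genes were chosen by symbol from 55291 gene symbols in the count tables, and each of the 10 symbols had its own row. Cultures came from C57BL/6J mice (wildtype, Synpo+/+) and from B6.129-Synpotm1Mndl/Dllr mice (Synpo-/-, back-crossed at least 10 times to C57BL/6J), were prepared at postnatal days 3 to 5 from either sex and matured for at least 18 days in vitro. In the entorhinal cortex lesion (ECL), a scalpel cut through the entorhinal cortex severed the perforant path, the main input of the dentate gyrus (DG) and an input of CA3. Regional libraries were made from the DG or CA3 of 1 culture each, 3 days after ECL or from non-lesioned controls. In Synpo+/+ cultures, 2 control and 3 ECL libraries came from CA3 and 4 control and 7 ECL libraries from DG. In Synpo-/- cultures, CA3 gave 6 control and 6 ECL libraries and DG gave 7 control and 4 ECL libraries. Whole-culture libraries pooled 5 to 6 cultures each (the labels give 6) and comprised 5 control and 5 ECL inputs of Synpo+/+ lysates, the same lysates after co-immunoprecipitation with an anti-synaptopodin antibody (Synpo-coIP, 5 and 5), and 2 inputs with 2 Synpo-coIP samples of Synpo-/- cultures. The time after ECL of the whole-culture libraries, and whether the Synpo-/- coIP cultures were lesioned, are not given in the sources used here. A slice culture has no blood flow, so immune cells that enter a lesioned brain from the blood have no route into it. The labels do not say which mice or litters the cultures share, so p-values measure only the spread between these samples.

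Chemokines are small secreted proteins that attract cells carrying the matching G protein-coupled receptor. Ccl2, Ccl7 and Ccl12 are ligands of Ccr2 that draw monocytes. Ccl3, Ccl4 and Ccl5 attract T cells and macrophages and are made in the brain mainly by microglia, the resident macrophages. Cxcl1 recruits neutrophils through Cxcr2, and Cxcl10 is an interferon-induced ligand of Cxcr3. Cxcl12 and Cx3cl1 are constitutive: Cxcl12 acts through Cxcr4 and is made by stromal cells and by cells of the dentate neurogenic niche, and Cx3cl1 (fractalkine) is a membrane-bound ligand of neurons for the microglial receptor Cx3cr1. Most inducible chemokine genes are switched on by NF-kB, AP-1 and interferon-responsive factors.

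The 10 genes lay on 4 mouse chromosomes of build GRCm38, and each is protein-coding. The Ccr2 ligands formed a cluster on the plus strand of chromosome 11, with Ccl2 at chr11:82035571-82037453, Ccl7 at chr11:82045712-82047525 and Ccl12 at chr11:82101845-82103400. Further along the same chromosome lay Ccl5 (chr11:83525778-83530518, minus strand), Ccl3 (chr11:83647844-83649355, minus strand) and Ccl4 (chr11:83662584-83664683, plus strand). Cxcl1 (chr5:90891241-90893115, plus strand) and Cxcl10 (chr5:92346638-92348889, minus strand) shared chromosome 5, Cxcl12 lay at chr6:117168535-117181367 and Cx3cl1 at chr8:94772009-94782427, both on the plus strand. Reads were counted without regard to strand, and of the 10 genes only Cxcl10 shares exonic sequence with another gene (133 bp with Art3 on the opposite strand). Union exon length ran from 537 bp for Ccl12 to 8176 bp for Cxcl12, a range taken up in the coIP comparison below.

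RefSeq (GRCm38.p6) gave a promoter for 6 of the 10 genes, and 3 are printed because their genes showed contrasting behaviour across the groups: Ccl12 differed between control and ECL in 3 of 5 lesion comparisons, Cxcl12 differed between DG and CA3, and Cxcl10 ranged from 5.59 to 54.1 CPM (read counts scaled to a common library size) within 1 group of cultures. Each run holds the 250 bases upstream of the RefSeq start, 5′ to 3′ on the gene's own strand, with motif matches in capitals. Searched on both strands were the NF-kB consensus, the interferon-responsive core (GAAA, any 2 bases, GAAA), the AP-1 site TGANTCA, the TATA box TATAAA and the GC box GGGCGG. In the Ccl12 run the capitals mark a TATA box 31 bases upstream of the start, in the Cxcl10 run an interferon-responsive core, NF-kB matches and an AP-1 site in that order, and in the Cxcl12 run 5 GC boxes, of which the last pair overlap by 1 base.
Ccl12, chr11:82101595-82101844, plus strand: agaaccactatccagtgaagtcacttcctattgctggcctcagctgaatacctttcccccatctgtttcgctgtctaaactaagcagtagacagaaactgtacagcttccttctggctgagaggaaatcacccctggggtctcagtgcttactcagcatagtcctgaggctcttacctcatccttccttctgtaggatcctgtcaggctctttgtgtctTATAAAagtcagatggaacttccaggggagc
Cxcl10, chr5:92348890-92349139, minus strand: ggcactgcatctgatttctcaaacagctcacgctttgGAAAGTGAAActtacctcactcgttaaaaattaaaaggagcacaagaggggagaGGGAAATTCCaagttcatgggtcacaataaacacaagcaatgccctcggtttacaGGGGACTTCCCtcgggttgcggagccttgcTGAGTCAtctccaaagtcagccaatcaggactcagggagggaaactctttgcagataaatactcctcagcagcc
Cxcl12, chr6:117168285-117168534, plus strand: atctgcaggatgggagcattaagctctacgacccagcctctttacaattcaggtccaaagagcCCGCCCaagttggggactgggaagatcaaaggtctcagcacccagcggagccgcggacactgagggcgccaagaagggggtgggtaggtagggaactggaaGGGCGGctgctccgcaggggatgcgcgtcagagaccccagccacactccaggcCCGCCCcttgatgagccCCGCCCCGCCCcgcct
Of 32851 promoters of this length, 7.25% held the NF-kB consensus, 2.98% the interferon-responsive core, 6.75% the AP-1 site, 12.4% the TATA box and 32.7% the GC box. Of the remaining promoters, that of Cxcl1 held an NF-kB match at 71 and, overlapping it on the other strand, at 70 bases upstream. That of Cx3cl1 held the letters TATAAA at 6 and a GC box at 27 bases upstream, and that of Ccl3 none of these motifs.

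Library totals ran from 14055930 to 46043990 counts in the 39 regional libraries and from 11601154 to 53682143 in the 24 whole-culture libraries. The targeted gene did not check the genotype: over whole-gene counts, Synpo lay between 19.1 and 38.4 CPM in Synpo+/+ regional libraries and between 30.4 and 69.3 CPM in Synpo-/- ones, and the labels do not say which part of the gene the allele lacks. Genotypes below are therefore those of the labels. Prox1, the transcription factor of granule cells, checked the region: it lay between 12.7 and 44.0 CPM in CA3 libraries and between 120.1 and 217 CPM in DG libraries, except for the library labelled Synpo+/+ DG ECL replicate 5 with 15.5 CPM. Its summed level of CA3 pyramidal cell markers was 794 CPM, above that of every other DG library (179 to 366 CPM), so the tests and marker lists that include it are also given without it. The libraries in which Xist exceeded the Y-linked genes numbered 4 of 4 Synpo+/+ DG controls but 4 of 7 Synpo+/+ DG ECL libraries, and in CA3 2 of 2 Synpo+/+ controls but 1 of 3 Synpo+/+ ECL libraries.

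All 10 chemokine genes had reads in every library and passed the filter on low counts in every comparison. Set against exon length (RPKM, the CPM divided by the exon length in kilobases), Ccl12 was the most abundant of the 10 in all 14 groups, and the group means of regional libraries ran from 79.9 ± 31.3 RPKM in Synpo+/+ DG control (SD, n = 4) to 244 ± 43.5 RPKM in Synpo-/- CA3 ECL (n = 6). Cxcl1 was the least abundant, with regional means between 0.255 and 0.914 RPKM and as few as 2 reads in a library, so little can be resolved for it. Between these ends, regional means lay at 18.9 to 37.0 RPKM for Ccl4, 16 to 24.2 RPKM for Ccl3, 11.5 to 21.8 RPKM for Ccl5, 10.4 to 14.2 RPKM for Cx3cl1, 4.61 to 14.7 RPKM for Ccl2, 3.37 to 8.95 RPKM for Cxcl10, 1.59 to 5.17 RPKM for Ccl7 and 0.866 to 2.73 RPKM for Cxcl12. The order of neighbours was often within their spread. In Synpo+/+ DG control, for example, Ccl4 (23.8 ± 12.2 RPKM), Ccl3 (16.5 ± 6.35) and Ccl5 (14.2 ± 3.11) lay within the SD of Ccl4. Reads of close paralogs such as Ccl2, Ccl7 and Ccl12 were assigned by the authors' mapping, and how reads that fit more than 1 paralog were treated is not given in the sources used here.

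**Figure D1:**
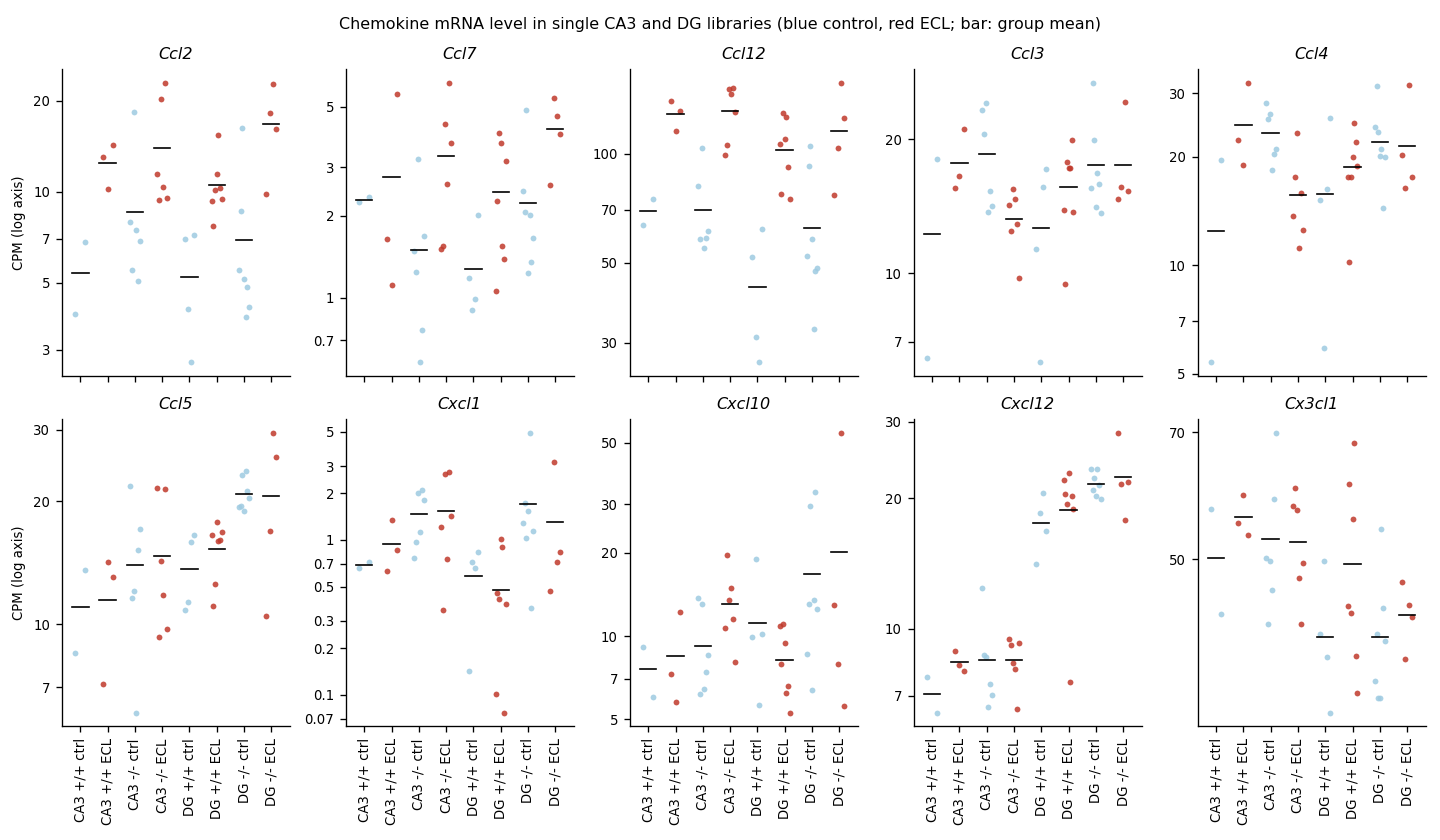
Level of each chemokine gene in the 39 regional libraries, in CPM on a log axis. Each point is 1 library of 1 culture, light blue for control and red for ECL, and the black bar is the group mean. Ccl2 and Ccl12 sit higher in ECL than in control of Synpo+/+ DG without overlap, Cxcl12 sits higher in DG than in CA3 apart from 1 Synpo+/+ DG ECL library, and Cxcl10 reaches 54.1 CPM in 1 Synpo-/- DG ECL library.

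The first question was which chemokine mRNAs changed 3 days after the perforant path was cut. Ccl12 was higher after ECL in Synpo+/+ CA3, Synpo+/+ DG and Synpo-/- CA3, Ccl2 was higher in Synpo+/+ DG and Synpo-/- DG, and no chemokine gene was called lower in any regional lesion comparison. A gene was called when the adjusted p of edgeR's quasi-likelihood test (Benjamini-Hochberg over all genes tested) was under 0.05. Unless another setting is named, edgeR below means the main fit. It held only the groups compared, with the filter on low counts and no pairing by replicate number. In Synpo+/+ DG 2 of 10 chemokine genes were called, where 12.2% of all 23720 genes were called and 7.86% were called higher. In Synpo+/+ CA3 it was 1 of 10 against 1.78% of all genes called and 1.50% called higher. For Synpo-/- the count was 1 of 10 in CA3 against 0.0770% called (16 of 20772 genes) and 0.0530% called higher, and 1 of 10 in DG against 8.53% called and 5.17% called higher. The median log2 fold change over the 10 genes was 0.23 in Synpo+/+ DG, 0.27 in Synpo+/+ CA3, 0.07 in Synpo-/- CA3 and 0.02 in Synpo-/- DG, beside medians of all genes between -0.01 and 0.01. At an unadjusted p under 0.05 there were 2 of 10 genes in Synpo+/+ CA3 and 3 in Synpo+/+ DG, beside 5348 of 22340 and 7823 of 23720 over all genes. For Synpo-/- there were 6 in CA3 and 3 in DG, beside 1510 of 20772 and 5034 of 23310 over all genes. Ccl2 and Ccl12 were among them in each comparison, and the 6 also held Ccl3, Ccl4, Ccl7 and Cxcl10.

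**Figure D2:**
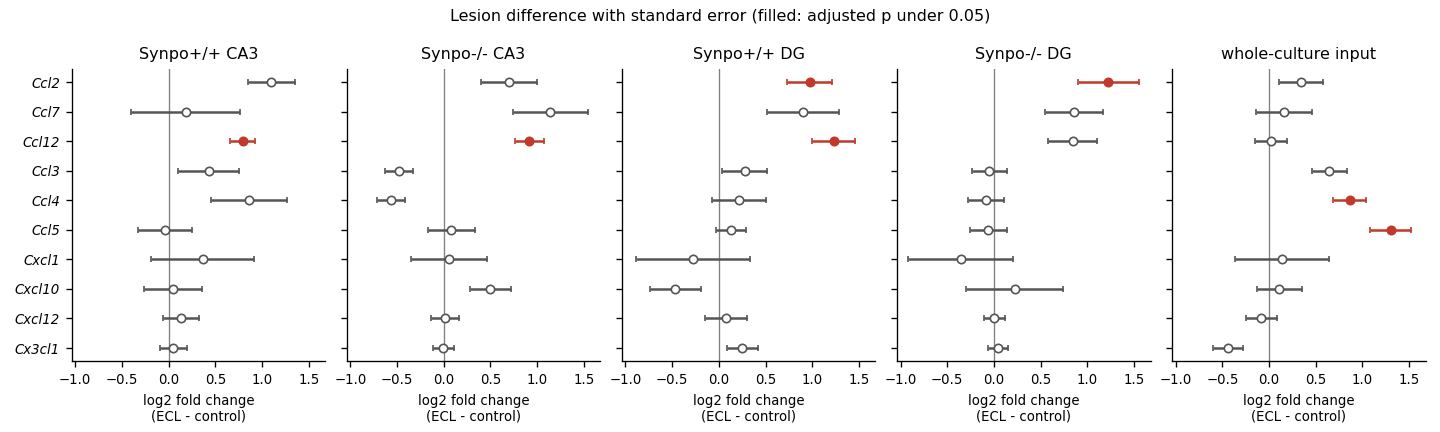
Difference between ECL and control for each chemokine gene in 5 comparisons, as log2 fold change with its standard error. Filled red points passed an adjusted p of 0.05 and open points did not. The Ccr2 ligands Ccl2 and Ccl12 hold the filled points of the 4 regional panels, and Ccl4 and Ccl5 those of the whole-culture input panel.

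Ccl12 stood at 51.9, 31.2, 26.6 and 62.0 CPM in the 4 Synpo+/+ DG controls. In the 7 ECL libraries it ran from 75.1 CPM over a median of 107 CPM to 130.04 CPM. The groups did not overlap (of all genes, 11.7% did not overlap in this comparison), and the difference was 1.23 ± 0.23 (log2 fold change ± SE, adjusted p = 0.0038). Without the library with low Prox1 it was 1.16 ± 0.21 (adjusted p = 0.0019), and the call held in each of the 19 alternative fits run. In Synpo+/+ CA3, Ccl12 was at 63.4 and 75.1 CPM in the controls and at 140.3, 115 and 131 CPM after ECL, again without overlap, although with 2 against 3 libraries 46.9% of all genes did not overlap. The difference was 0.79 ± 0.13 (adjusted p = 0.031), and it missed the threshold without control replicate 1 (adjusted p = 0.10), ECL replicate 1 (0.065) or ECL replicate 2 (0.11), and with all 8 regional groups in 1 fit (0.15).

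In Synpo-/- CA3, Ccl12 ran from 55.0 CPM over a median of 59.8 CPM to 104 CPM in the 6 controls, and from 99.5 over 139 to 153 CPM in the 6 ECL libraries. Only the highest control (replicate 3) reached into the ECL range. The difference was 0.92 ± 0.16 (adjusted p = 0.030), and Ccl12 ranked 13 by p among 20772 genes. The size stayed between 0.79 and 1.07 in 20 alternatives, but the call was kept in 10 of them. It was lost with the length trend removed (adjusted p = 0.057), with all 8 regional groups in 1 fit (0.14) and in Xist-high libraries alone (0.053). Leaving out control replicate 2, 4, 5 or 6 or ECL replicate 3, 4 or 5 gave adjusted p-values of 0.12, 0.076, 0.086, 0.065, 0.082, 0.089 and 0.079. The DG of Synpo-/- cultures held Ccl12 at 32.8 to 105 CPM in 7 controls (median 52.3 CPM) and at 76.9, 104, 157 and 126 CPM after ECL. These groups overlapped and the difference of 0.84 ± 0.26 missed the threshold (adjusted p = 0.056). It passed without control replicate 2 (0.027), control replicate 3 (0.017) or ECL replicate 1 (0.047).

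Ccl2, the best known monocyte attractant, was at 6.97, 4.09, 2.74 and 7.18 CPM in Synpo+/+ DG controls. After ECL it ran from 7.71 over a median of 10.2 to 15.4 CPM, so that each ECL library lay above each control. The difference was 0.97 ± 0.24 (adjusted p = 0.021) and 0.84 ± 0.22 (adjusted p = 0.018) without the library with low Prox1, which held the 15.4 CPM. Leaving out control replicate 2 or 3 ended the call (adjusted p = 0.075 and 0.063). Synpo-/- DG libraries had Ccl2 at 3.84 to 16.2 CPM in the controls (median 5.14 CPM) and at 9.84, 18.2, 22.6 and 16.05 CPM after ECL. A single control, replicate 3, lay inside the ECL range. The difference was 1.23 ± 0.33 (adjusted p = 0.027), and DESeq2 put it at an adjusted p of 0.053. Without control replicate 1 or 6, or ECL replicate 3 or 4, the adjusted p was 0.052, 0.055, 0.10 and 0.052. In Xist-high libraries alone it was 0.15.

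In CA3, Ccl2 missed the threshold in both genotypes. Synpo+/+ controls stood at 3.94 and 6.82 CPM and ECL libraries at 12.98, 10.2 and 14.2 CPM, a difference of 1.10 ± 0.25 (adjusted p = 0.057) that DESeq2 called (adjusted p = 0.0044). Without control replicate 2, which left a single control, the difference was 1.59. Synpo-/- controls ran from 5.08 to 18.3 CPM (median 7.18 CPM) and ECL libraries from 9.39 to 22.9 CPM (median 10.9 CPM). This difference was 0.70 ± 0.30 (adjusted p = 0.65). The third Ccr2 ligand, Ccl7, was below Ccl2 on the RPKM scale in each of the 8 regional groups and had 12 to 178 reads in a regional library. Its lesion differences were 0.18 ± 0.59 in Synpo+/+ CA3, 0.90 ± 0.39 in Synpo+/+ DG, 1.14 ± 0.40 in Synpo-/- CA3 and 0.86 ± 0.31 in Synpo-/- DG, none of them past the threshold (adjusted p between 0.10 and 0.87). Ccl7 passed in Synpo-/- DG without control replicate 3 (1.18 ± 0.24, adjusted p = 0.0094), the same library that held the highest control values of Ccl2 and Ccl12.

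Ccl3, Ccl4 and Ccl5 were not called by edgeR in the main fit of any of the 4 regional lesion comparisons. Without the filter on low counts, Ccl4 was called higher in Synpo+/+ CA3. Ccl3 differed by 0.43 ± 0.33 in Synpo+/+ CA3, 0.28 ± 0.24 in Synpo+/+ DG, -0.48 ± 0.15 in Synpo-/- CA3 and -0.05 ± 0.18 in Synpo-/- DG. Ccl4 differed by 0.86 ± 0.41, 0.22 ± 0.28, -0.57 ± 0.15 and -0.09 ± 0.19 in the same order. Ccl5 stayed between -0.06 and 0.13 in all 4. In Xist-high libraries alone, Ccl4 was called lower in Synpo-/- CA3 (-0.89 ± 0.16, adjusted p = 0.042). In CA3 the Ccl4 values of the genotypes thus pointed in opposite directions. Synpo+/+ CA3 had 5.39 and 19.6 CPM in control and 22.2, 19.0 and 32.1 CPM after ECL, while Synpo-/- CA3 had 18.4 to 28.3 CPM (median 23.2) in control and 11.2 to 23.3 CPM (median 14.8) after ECL. The test of that difference itself, the interaction of genotype with lesion, gave -1.46 ± 0.43 for Ccl4 (adjusted p = 0.15) and -0.94 ± 0.38 for Ccl3 (adjusted p = 0.22) by edgeR. DESeq2 called Ccl4 (-1.44 ± 0.42, adjusted p = 0.043), and so did edgeR without the filter on low counts. The Synpo+/+ side rests on 2 controls, of which replicate 1 held the low values of both genes (6.44 CPM for Ccl3, 5.39 CPM for Ccl4). Without control replicate 2, which left a single control, the Synpo+/+ lesion differences rose to 1.39 for Ccl3 and 2.11 for Ccl4.

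Of the remaining genes, Cxcl10 differed by 0.05 ± 0.31 in Synpo+/+ CA3, -0.47 ± 0.27 in Synpo+/+ DG, 0.50 ± 0.22 in Synpo-/- CA3 and 0.22 ± 0.52 in Synpo-/- DG, with adjusted p-values of 0.235 or more. In Synpo-/- DG ECL it stood at 12.99, 7.96, 54.1 and 5.59 CPM, so a single culture set the group mean of 20.2 ± 22.8 CPM (SD, n = 4). Cxcl1 differed by less than its standard error in all 4 regional comparisons. Cxcl12 differed by 0.00 to 0.14 and Cx3cl1 by 0.00 to 0.25 in size, with adjusted p-values of 0.286 or more. Without the library with low Prox1, the 8 genes not called in Synpo+/+ DG differed by -0.52 to 0.97 there, with adjusted p-values of 0.083 or more.

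Genes of the same pathway moved as follows. Of the other chemokine ligands listed, 6 of 14 tested were called higher in Synpo+/+ DG, among them Cxcl16 (1.40 ± 0.18, adjusted p = 3.1e-04), Ccl6 (0.89 ± 0.14), Cxcl5 (1.504 ± 0.233) and Ccl9 (1.00 ± 0.16). In Synpo-/- DG 4 of 13 were higher, led by Cxcl16 (1.22 ± 0.20) and Cxcl5 (1.61 ± 0.29), and 1 was lower. In CA3 edgeR called 0 of 14 in either genotype, with 6 of 14 (Synpo+/+) and 3 of 14 (Synpo-/-) at an unadjusted p under 0.05. Of the receptors, 3 of 16 were higher in Synpo+/+ DG, among them Cx3cr1, the receptor of Cx3cl1 (0.92 ± 0.11), and Ccr1, a receptor of Ccl3 and Ccl5 (1.09 ± 0.19). In Synpo-/- DG 2 of 16 were higher, Cx3cr1 (0.76 ± 0.15) among them. Of the cytokine receptors and transcription factors that induce chemokine genes, 6 of 18 were higher in Synpo+/+ DG and 5 of 18 in Synpo-/- DG. Irf7, the interferon regulatory factor, was among them in both (1.23 ± 0.25 and 1.40 ± 0.18). Without the library with low Prox1 the Synpo+/+ DG counts were 5 of 13 ligands, 3 of 16 receptors and 7 of 18 inducers. The median log2 fold change of the ligand list was 0.37 and 0.42 in DG of the genotypes, and that of the receptor list -0.32 and 0.22. These lists hold background genes of the pathway and were not tested as sets.

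Markers of several cell types moved with the lesion in part of these comparisons. The 14 microglia markers were called higher as 14 of 14 in Synpo+/+ DG (median 1.17), 10 of 14 in Synpo-/- DG (0.66), 2 of 14 in Synpo+/+ CA3 (0.51) and 0 of 14 in Synpo-/- CA3 (-0.14). In the last, edgeR gave 1 of 14 an unadjusted p under 0.05, and that marker was lower. Their summed level ran from 508 to 716 CPM in Synpo+/+ DG control and from 1282 to 1633 CPM after ECL, from 592 to 1329 CPM and 1321 to 1794 CPM in Synpo-/- DG, from 537 to 932 CPM and 1116 to 1491 CPM in Synpo+/+ CA3, and from 765 to 1710.0 CPM and 709 to 1252 CPM in Synpo-/- CA3. Astrocyte markers were higher as 6 of 9 in Synpo+/+ DG and 7 of 9 in Synpo-/- DG, and edgeR called 0 of 9 in CA3. There, 3 of 9 had an unadjusted p under 0.05 in Synpo+/+, each higher, and 1 of 9 in Synpo-/-, which was lower. In Synpo+/+ DG without the library with low Prox1, 14 of 14 microglia and 8 of 9 astrocyte markers were called higher. Oligodendrocyte markers were lower in Synpo-/- CA3, where the 7 genes summed to 1698 to 2714 CPM in control and 1130 to 1575 CPM after ECL. Mbp (-0.70 ± 0.10) and Mobp (-0.75 ± 0.13), both of myelin, were the 2 of 7 called there, and 7 of 7 had an unadjusted p under 0.05. In DG, by contrast, Cnp of the same list was called higher in Synpo+/+ (0.80 ± 0.16) and Synpo-/- (0.63 ± 0.17). Without the library with low Prox1, Mog was also called higher in Synpo+/+ DG (0.72 ± 0.20, adjusted p = 0.027). Of 6 border macrophage markers 1 was called higher in each DG, F13a1 (0.87 ± 0.21 in Synpo+/+ and 0.70 ± 0.15 in Synpo-/-), and their sum ran from 25.9 to 39.5 CPM in control and 22.1 to 66.7 CPM after ECL in Synpo+/+ DG, where the library with low Prox1 held the lowest value and the other 6 began at 41.7 CPM. Ms4a7 was called there too once that library was left out (1.02 ± 0.22, adjusted p = 0.0057). In Synpo-/- DG it ran from 28.6 to 53.7 CPM in control and 54.0 to 80.5 CPM after ECL. Endothelial markers summed to 19.7 to 29.1 CPM in Synpo+/+ DG control and 13.5 to 20.3 CPM after ECL, with 2 of 7 called lower, Tek (-1.05 ± 0.33) and Kdr (-0.64 ± 0.19). Without the library with low Prox1 the Tek call was lost (-0.95 ± 0.31, adjusted p = 0.051) and Flt1 was called lower (-0.56 ± 0.17, adjusted p = 0.042). The count stayed at 2 of 7. In Synpo+/+ CA3, Vwf was called lower (-1.28 ± 0.25, adjusted p = 0.041). No endothelial marker was called in Synpo-/-, where the sums ran from 13.1 to 22.6 CPM in control and 18.1 to 24.3 CPM after ECL in DG. In CA3 they ran from 15.8 to 23.1 CPM and 18.0 to 34.6 CPM. Markers of blood leukocytes summed to between 0.536 and 6.05 CPM over 10 genes in the regional libraries, with 3.29 to 6.05 CPM in control and 0.536 to 1.95 CPM after ECL in Synpo+/+ CA3. Of the 2 to 5 of them tested, edgeR called 0, and 2, 2, 0 and 0 had an unadjusted p under 0.05 in Synpo+/+ CA3, Synpo+/+ DG, Synpo-/- CA3 and Synpo-/- DG, each of them lower after ECL. In bulk tissue, more cells of a type and more RNA per cell cannot be told apart, and the part of these markers in the chemokine results was not tested. In Xist-high libraries alone, the Synpo+/+ DG differences were 1.196 for Ccl12 (adjusted p = 0.017) and 1.11 for Ccl2 (adjusted p = 0.030).

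Whether the lesion response of a chemokine gene differed between regions or genotypes was tested by interaction terms. By edgeR, 0 of 10 chemokine genes were called for genotype by lesion in CA3 (0% of all genes), genotype by lesion in DG (0.00381%), region by lesion in Synpo+/+ (0%) and region by lesion in Synpo-/- (1.12%). At an unadjusted p under 0.05 the counts were 2, 0, 0 and 0, beside 4589 of 26821, 2730 of 26245, 1240 of 27783 and 2787 of 25435 over all genes. DESeq2 called 1 (Ccl4, CA3), 0, 0 and 0, and edgeR without the filter on low counts also called Ccl4 in CA3. For Ccl12 the interactions were 0.09 ± 0.28 (genotype, CA3), -0.42 ± 0.38 (genotype, DG), 0.39 ± 0.34 (region, Synpo+/+) and -0.10 ± 0.34 (region, Synpo-/-). For Ccl2 they were -0.42 ± 0.55, 0.21 ± 0.46, -0.17 ± 0.42 and 0.50 ± 0.49 in that order. The calls of Ccl12 and Ccl2 that appear in some regions and not in others were therefore not shown to differ between them. Without the library with low Prox1, edgeR called 0 of 10 for genotype by lesion in DG and for region by lesion in Synpo+/+, with 0 at an unadjusted p under 0.05 in either. The values were then -0.37 ± 0.38 and 0.33 ± 0.32 for Ccl12, and 0.33 ± 0.45 and -0.29 ± 0.38 for Ccl2.

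Genotypes were also compared directly, Synpo-/- against Synpo+/+ at equal region and lesion state. By edgeR no chemokine gene was called in CA3 control (0.00413% of all genes called), DG control (0.0166%), lesioned CA3 (0.00891%) or lesioned DG (0.0166%). At an unadjusted p under 0.05 there were 1, 3, 3 and 4, beside 3959 of 24203, 3746 of 24143, 1383 of 22447 and 859 of 24100 over all genes. Closest to the threshold was Ccl5 in control DG, at 10.8, 11.4, 15.9 and 16.6 CPM in Synpo+/+ and 19.0 to 23.7 CPM (median 20.4) in Synpo-/-. These groups did not overlap, as was so for 2.44% of all genes, and the difference of 0.58 ± 0.13 had an adjusted p of 0.21 by edgeR and 0.011 by DESeq2. Without Synpo-/- control replicate 4 edgeR gave 0.035. In control CA3, Ccl4 differed by 0.84 ± 0.33 (adjusted p = 0.23). Without Synpo+/+ replicate 2, which left a single Synpo+/+ library, the difference was 2.07. In lesioned DG the 7 Synpo+/+ and 4 Synpo-/- libraries overlapped for all 10 genes (0.664% of all genes did not overlap). Cxcl1 read higher in Synpo-/- in all 4 comparisons (0.72 to 1.49), each with a standard error of 0.50 to 0.59 and an adjusted p of 0.257 or more. Without the library with low Prox1, edgeR called 0 of 10 in lesioned DG, with 4 at an unadjusted p under 0.05 and adjusted p-values of 0.88 or more.

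The second question was how the genes differed between hippocampal regions. Cxcl12 was higher in DG than in CA3 in each of the 4 comparisons, by 1.32 ± 0.21 in Synpo+/+ control (adjusted p = 0.0016), 1.23 ± 0.27 in Synpo+/+ ECL (0.037), 1.46 ± 0.12 in Synpo-/- control (5.0e-08) and 1.40 ± 0.14 in Synpo-/- ECL (1.3e-05). It was the only chemokine gene called in Synpo+/+ control, Synpo+/+ ECL and Synpo-/- ECL, where 5.39%, 2.05% and 13.6% of all genes were called and 2.63%, 1.54% and 7.37% were called higher. In Synpo-/- control, where 25.5% were called and 13.1% were called higher, Ccl5 (0.69 ± 0.18, adjusted p = 0.0075) and Cxcl10 (0.96 ± 0.32, adjusted p = 0.036) were also higher in DG.

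Cxcl12 stood at 14.1, 18.5, 20.6 and 16.8 CPM in Synpo+/+ DG control and at 7.75 and 6.405 CPM in Synpo+/+ CA3 control. In Synpo-/- it ran from 19.9 to 23.3 CPM in DG control (median 21.5 CPM) against 6.61 to 12.4 CPM in CA3 control (median 8.03 CPM). After ECL the Synpo-/- DG libraries held 28.2, 21.6, 17.8 and 21.8 CPM and the CA3 libraries 6.53 to 9.48 CPM (median 8.75 CPM). None of these pairs of groups overlapped, which was so for 27.6%, 11.2% and 12.4% of all genes. In Synpo+/+ ECL, 6 of 7 DG libraries lay between 18.8 and 22.8 CPM and the CA3 libraries at 8.87, 8.26 and 8.003 CPM. The seventh DG library, replicate 5, held 7.55 CPM and is the library whose Prox1 was as low as in CA3. Without it the difference was 1.35 ± 0.12 (adjusted p = 6.1e-07), and the other 9 genes had adjusted p-values of 0.118 or more. With it, leaving out any other library of the 10 in turn moved the adjusted p past the threshold: 0.072, 0.068, 0.086, 0.073, 0.074 and 0.068 without DG replicates 1, 2, 3, 4, 6 and 7, and 0.14, 0.17 and 0.18 without CA3 replicates 1, 2 and 3. Among CA3 libraries, Synpo-/- control replicate 1 held both the highest Cxcl12 (12.4 CPM) and the highest Prox1 (44.0 CPM). Markers of granule cells, the principal cells of the DG, were called higher in DG as 7, 6, 7 and 6 of 7 in the 4 comparisons, and as 7 of 7 in Synpo+/+ ECL without the library with low Prox1. Their part in the Cxcl12 result was not tested.

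**Figure D3:**
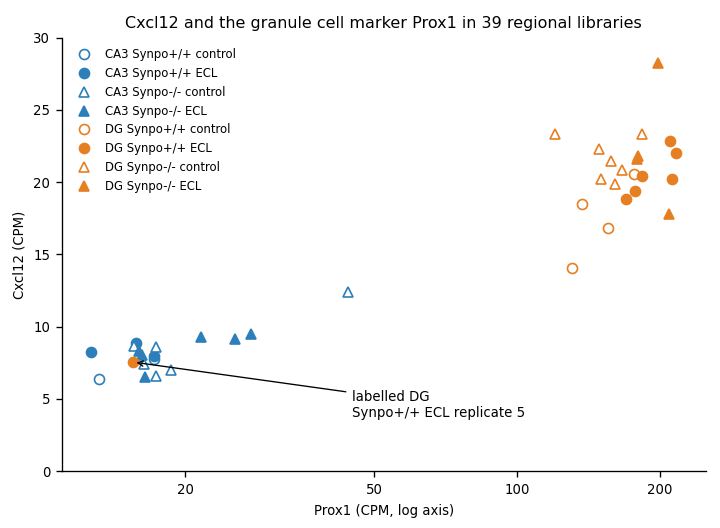
Cxcl12 (CPM) against Prox1 (CPM, log axis) in the 39 regional libraries. Blue points are CA3 and orange points DG, circles Synpo+/+ and triangles Synpo-/-, open for control and filled for ECL. The DG libraries form a group above 14 CPM of Cxcl12, the CA3 libraries lie at or under 12.4 CPM, and the library labelled Synpo+/+ DG ECL replicate 5 lies with CA3 on both axes.

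The region calls of Ccl5 and Cxcl10 in Synpo-/- control were less firm. Ccl5 ran from 6.08 to 21.8 CPM in CA3 (median 13.6 CPM) and from 19.0 to 23.7 CPM in DG (median 20.4 CPM), so that 1 CA3 library overlapped DG. Its call held without each of the 13 libraries and was lost with all 8 regional groups in 1 fit (0.58 ± 0.22, adjusted p = 0.068). Cxcl10 ran from 6.20 to 13.7 CPM in CA3 and from 6.37 to 33.2 CPM in DG (medians 7.97 and 13.1 CPM). Its call was lost without CA3 replicate 2, 4, 5 or 6 (adjusted p = 0.087, 0.070, 0.081 and 0.064), without DG replicate 3 or 6 (0.094 and 0.096), by DESeq2 (0.088), and with all 8 regional groups in 1 fit (0.12). Cx3cl1 read lower in DG in all 4 comparisons (-0.29 ± 0.17, -0.12 ± 0.17, -0.27 ± 0.11 and -0.27 ± 0.11), none called by edgeR in the main fit. In Synpo-/- control it was called by DESeq2 (-0.32 ± 0.13, adjusted p = 0.044) and by edgeR with all 8 regional groups in 1 fit. With the replicate number as a block, edgeR called it in Synpo-/- control and Synpo-/- ECL. It also passed in Synpo-/- control without CA3 replicate 2 (adjusted p = 0.039) or DG replicate 5 (0.012), and in Synpo-/- ECL without CA3 replicate 5 (0.046). Markers of neurons, the source of Cx3cl1, summed to 4020 to 4921 CPM in DG and 6847 to 7346 CPM in CA3 of Synpo+/+ control, and to 4066 to 9873 CPM and 7406 to 9735 CPM in Synpo+/+ ECL, where the library with low Prox1 held the 9873 CPM and the other 6 DG libraries reached 5272 CPM. In Synpo-/- the sums were 4135 to 6062 CPM and 7709 to 9655 CPM in control, and 3427 to 5049 CPM and 5149 to 9126 CPM after ECL. The part of these markers in the Cx3cl1 values was not tested. Ccl7 passed in Synpo-/- control without CA3 replicate 3 (1.06 ± 0.36, adjusted p = 0.040), and Ccl12 was lower in DG in Synpo+/+ control without DG replicate 4 (-0.90 ± 0.23, adjusted p = 0.037).

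In whole cultures the lesion was associated with other chemokine genes. Ccl5 and Ccl4 were higher in ECL than in control input (2 of 10 called, where 5.61% of all 17951 genes were called and 2.45% were called higher), and Ccl12 and Ccl2 were not. Ccl5 stood at 8.999, 4.48, 4.82, 7.12 and 5.52 CPM in control and at 12.1, 14.4, 11.7, 16.3 and 22.3 CPM after ECL. Ccl4 stood at 5.52, 6.08, 4.78, 5.72 and 5.17 CPM in control and at 9.73, 14.7, 7.18, 9.88 and 8.34 CPM after ECL. For both genes every lesioned sample lay above every control, as was so in either direction for 6.12% of all genes. The differences were 1.30 ± 0.22 for Ccl5 (adjusted p = 0.0045) and 0.86 ± 0.17 for Ccl4 (adjusted p = 0.013), and each call held in 15 of 15 alternative fits. Under a limit on the mean normalized count of 300, which neither gene reaches here, neither would be considered.

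Ccl3 moved in the same direction (0.65 ± 0.19, adjusted p = 0.062) and was called by DESeq2 (0.018) and without ECL replicate 3 (0.77 ± 0.17, adjusted p = 0.035). Ccl12 was at 47.6 to 88.6 CPM in control and 62.9 to 103 CPM after ECL, a difference of 0.02 ± 0.17 (adjusted p = 0.97). Ccl2 differed by 0.35 ± 0.24 (adjusted p = 0.47), and Cx3cl1 by -0.44 ± 0.16 (adjusted p = 0.13). Of the 14 microglia markers, 7 were called higher, and their summed level ran from 1003 to 1574 CPM in control and from 1363 to 2311 CPM after ECL. Neuron markers had an unadjusted p under 0.05 in 5 of 9 (3493 of 17951 over all genes), each lower after ECL, and 1, Tubb3, was called (-0.47 ± 0.12). Their sum ran from 8519 to 10420 CPM in control and from 7274 to 8736 CPM after ECL. Of 9 astrocyte markers 5 had an unadjusted p under 0.05, each higher, 1 was called, and the sum ran from 19050 to 27240 CPM and from 24010 to 36140 CPM. Of 17 inducers, 3 were called higher, among them Irf7 (1.06 ± 0.12) and Irf9 (0.54 ± 0.10), factors of the interferon response. Of 10 blood leukocyte markers, 4 were at 0 in all inputs of each group, and the rest summed to at most 1.04 CPM. The part of these markers in the results was not tested. The regional and whole-culture experiments differ in preparation, pooling and read length and were normalized separately, so their differences stand side by side without a test. As levels per length, Cx3cl1 had means of 19.4 to 26.9 RPKM in the input groups and 10.4 to 14.2 RPKM in the 8 regional groups. Ccl3 had 7.25 to 11.4 RPKM against 16 to 24.2 RPKM, and Ccl4 7.625 to 15.1 RPKM against 18.9 to 37.0 RPKM.

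**Figure D4:**
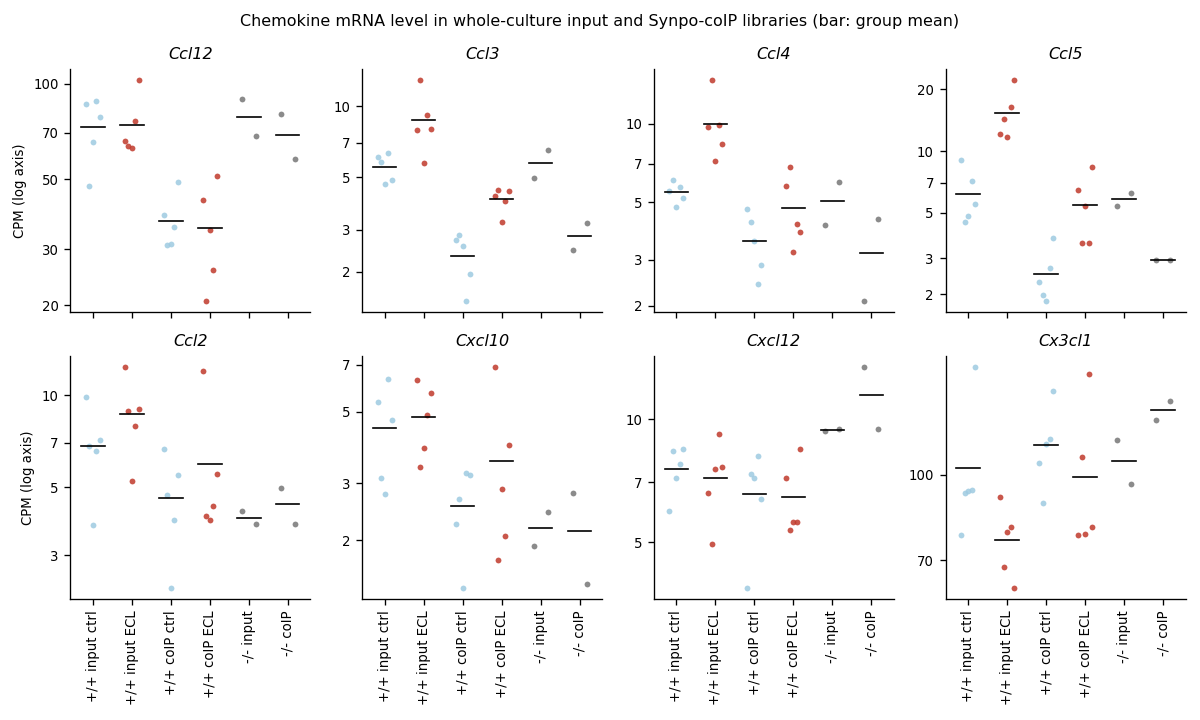
Level of 8 chemokine genes in the 24 whole-culture libraries, in CPM on a log axis. Each point is 1 library of 5 to 6 pooled cultures, light blue for control, red for ECL and grey for Synpo-/- (lesion state not given), and the bar is the group mean. Ccl4 and Ccl5 sit higher in ECL than in control input without overlap, Ccl3, Ccl4 and Ccl5 sit lower in coIP than in input of both Synpo+/+ sets, and Ccl12 does not separate control from ECL input.

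The third question was whether chemokine mRNAs were recovered with synaptopodin. As counted, none was called higher in Synpo-coIP than in input, and 6 of 10 were called lower in Synpo+/+ control, 4 of 10 in Synpo+/+ ECL and 2 of 10 in Synpo-/-. These shares stand beside 55.0%, 58.3% and 31.4% of all genes called in either direction, and 25.5%, 27.8% and 16.4% called lower. Each coIP sample was made from the lysate of an input. Samples of the same number were taken as such pairs, which the Synpo+/+ labels do not state. With that pairing in the fit 7 of 10 were called lower in Synpo+/+ ECL. Ccl2 (-0.61 ± 0.17, adjusted p = 0.0089), Ccl7 (-0.60 ± 0.22, 0.030) and Cxcl10 (-0.55 ± 0.21, 0.041) were added there, and Ccl2 was added in Synpo+/+ control (-0.56 ± 0.15, 0.0032). In Synpo-/- the pairing added Ccl4 (-0.74 ± 0.28, 0.028), which made 3 of 10. The Synpo-/- samples are numbered and paired here by the number in their names (SPko-1 and SPko-2), since a further replicate number in the labels is crossed between the inputs. Without coIP ECL replicate 1, which held the highest coIP values of Ccl2, Ccl7 and Cxcl10, 8 of 10 were called: these 7 lower and Cx3cl1 higher (0.49 ± 0.19, adjusted p = 0.039). Cx3cl1 also passed there without coIP replicate 3 or 5 (adjusted p = 0.047 and 0.045) and in control without input replicate 5 (0.040), and Ccl7 passed in ECL without input replicate 3 (0.032).

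Ccl5 was at 8.999, 4.48, 4.82, 7.12 and 5.52 CPM in control input and at 2.28, 1.99, 1.85, 2.69 and 3.77 CPM in the paired coIP samples. Each coIP sample lay below its input, and the difference was -1.27 ± 0.24 (adjusted p = 4.4e-04). In ECL samples it was -1.48 ± 0.25 (adjusted p = 1.7e-04) and in Synpo-/- samples -1.02 ± 0.25 (adjusted p = 0.0092). Ccl3 differed by -1.24 ± 0.20, -1.09 ± 0.21 and -1.04 ± 0.27 in the same order (adjusted p = 1.1e-04, 4.4e-04 and 0.012). In Synpo-/-, leaving out input replicate 2 took both past the threshold (adjusted p = 0.067 for Ccl5 and 0.11 for Ccl3).

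Ccl12 stood at 86.2, 47.6, 65.5, 88.6 and 78.4 CPM in control input and at 38.5, 30.9, 31.3, 35.3 and 48.9 CPM in coIP, a difference of -0.97 ± 0.17 (adjusted p = 1.9e-04). It was -1.08 ± 0.21 in ECL (adjusted p = 6.9e-04) and -0.22 ± 0.18 in Synpo-/- (adjusted p = 0.37), where the inputs held 89.3 and 68.2 CPM and the coIP samples 80.4 and 57.8 CPM. The interaction of genotype with fraction, against Synpo+/+ control, was 0.80 ± 0.31 for Ccl12 (adjusted p = 0.60). No chemokine gene was called in it by edgeR or DESeq2, with 0% of all genes called by edgeR. At an unadjusted p under 0.05 there was 1 of 10 chemokine genes, beside 1511 of 20621 over all genes. The Synpo-/- coIP samples were deposited separately, so genotype and batch cannot be told apart there. Ccl4 differed by -0.60 ± 0.19, -1.04 ± 0.24 and -0.68 ± 0.34, and Ccl7 (-0.92 ± 0.33, adjusted p = 0.026) and Cxcl10 (-0.77 ± 0.27, adjusted p = 0.022) were called in control alone. The Ccl7 call was lost without input replicate 1 or 2 (adjusted p = 0.085 and 0.057) or coIP replicate 3, 4 or 5 (0.062, 0.067 and 0.054), and that of Cxcl10 without input replicate 4 (0.070) or coIP replicate 3 (0.052). Ccl2 passed in control without input replicate 3 (-0.69 ± 0.25, adjusted p = 0.031) or coIP replicate 1 (-0.70 ± 0.27, 0.041). In Synpo-/-, Ccl12 differed by -0.49 without coIP replicate 1 and Ccl4 by -1.30 without coIP replicate 2, each with a single coIP sample left.

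Most of these calls were lost when the trend of each library with exon length was removed: 0, 2 and 0 of 10 genes were then called in the 3 sets. Removing that trend also takes out any difference between coIP and input that goes with length. Why the calls were lost was not tested. Ccl5 in Synpo+/+ ECL kept a lower value (-0.70 ± 0.17, adjusted p = 0.0027), Cx3cl1 became called higher there (0.55 ± 0.19, adjusted p = 0.023), and Ccl4 in Synpo+/+ control changed sign (0.17 ± 0.20, adjusted p = 0.51). Ccl12, whose exon length of 537 bp is the shortest of the 10, moved to -0.17 ± 0.18 in control and -0.24 ± 0.12 in ECL. The long transcripts Cxcl12 (8176 bp) and Cx3cl1 (3930 bp) were not called as counted: Cxcl12 differed by -0.18 ± 0.19, -0.14 ± 0.19 and 0.25 ± 0.21, and Cx3cl1 by 0.16 ± 0.17, 0.41 ± 0.18 and 0.27 ± 0.14. Microglia markers were called lower in coIP as 6, 8 and 4 of 14 and higher as 1 of 14 in each set, and of the other chemokine ligands 5 of 12, 6 of 12 and 2 of 13 were lower, Ccl6 among them in all 3 (-1.60 ± 0.14, -1.61 ± 0.22 and -0.90 ± 0.17). The part of these markers in the result was not tested.

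**Figure D5:**
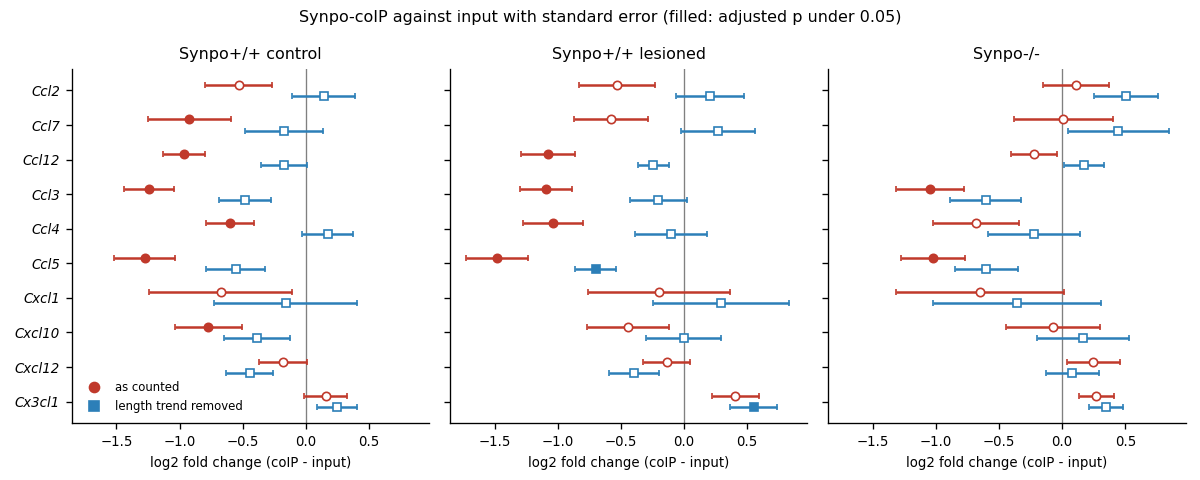
Difference between Synpo-coIP and input for each chemokine gene in the 3 sets of samples, as log2 fold change with its standard error. Red circles are as counted and blue squares are after removal of the length trend, and filled symbols passed an adjusted p of 0.05. As counted, 6, 4 and 2 of 10 genes are filled on the lower side, and after removal of the length trend Ccl5 (lower) and Cx3cl1 (higher) are filled in Synpo+/+ lesioned samples.

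Across the 39 regional libraries, the genes with the most similar course differed by chemokine. Likeness was taken as the root mean square difference between log2 (CPM + 1) courses centred on their means, over 17453 genes with a mean of at least 1 CPM. Nearest to Ccl12 were Plscr2 (0.354) and Zbp1 (0.388), against a median over all genes of 0.671. Nearest to Ccl2 were Srgn (0.426) and Fcgr1 (0.431), and nearest to Cxcl10 were BC023105 (0.423) and Rsad2 (0.426), against medians of 0.696 and 0.741. Cxcl12 lay closest to Isoc1 (0.196) and Gpc4 (0.198), against a median of 0.716, and Cx3cl1 to Strn4 (0.122) and Dync1h1 (0.123), against 0.362. For Ccl3 (Txndc12 and Eed), Ccl4 (Cd86 and Syf2), Ccl5 (Tceal9 and Prelid2), Ccl7 (Ifi207 and Gm26760) and Cxcl1 (Synpo and Mir670hg) the nearest genes lay at 0.243 to 0.432, against medians of 0.471 to 0.629. Of these 20 nearest genes, 16 were the same without the library with low Prox1.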

How the data were processed

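RNA was sequenced from 39 regional and 24 whole-culture libraries. Before deposit, the authors removed adapters (cutadapt 3.5), aligned reads to mm10 (STAR 2.7.8a), required over 60% unique alignments per library and summed exonic reads by gene, ignoring strand (featureCounts 2.0.1, GENCODE M25, GRCm38). The deposited values are these raw counts. Each of 21 comparisons was then fitted on its own groups in edgeR 4.0.16 (R 4.3.3) by the quasi-likelihood test, after filterByExpr and TMM scaling, with Benjamini-Hochberg adjustment over all genes tested. Levels in CPM used TMM over the regional and, separately, the whole-culture libraries, and RPKM divided them by union exon length. Groups came from the labels. The 10 genes, the gene lists and the comparisons were chosen with earlier results of these data known. The named genes were the 10 chemokine genes, at most 4 genes of a list per comparison with the smallest p among its calls, and the 2 genes nearest in course to each chemokine gene. Some genes that this rule names are not reported here. Count depth sets the precision, and the spread was taken from the replicates. The fits were tested on simulated data. Alternatives were DESeq2 1.42.0, no filter on low counts, RLE size factors, a mean normalized count over 300, removal of the length trend (lowess span 0.3 over genes with a mean count over 50), the replicate number as a block, all 8 regional groups in 1 fit, each library left out in turn and, added after the data were seen, Xist-high libraries only and the marker lists and likeness without the library with low Prox1. Same-numbered Synpo+/+ coIP and input samples were taken to come from 1 lysate, which the labels do not state. They deviated together across genes (r from 0.245 to 0.572 in the 5 Synpo+/+ control pairs and from 0.141 to 0.538 in the 5 ECL pairs). Of the coIP samples, 3 of 5 in control and 4 of 5 in ECL correlated best with the input of their own number. The labels of the 2 Synpo-/- pairs (r = 0.0756) tie them by the number in their names.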

Additional observations from a re-analysis of the deposited data

Results flagged for a closer look

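Of 100 combinations of a chemokine gene and a group of 4 to 10 samples, 14 held a sample far from the others (Dixon's test at the 95% level). The nominal rate of that test, 1 in 20, holds for normal and independent values. The combinations share libraries, and the CPM were not tested for normality, so the 14 cannot be set against that rate. In Synpo-/- DG ECL, replicate 3 stood apart in Cxcl10 (54.1 CPM, others 5.59 to 12.99 CPM) and Ccl3 (24.3 CPM, others 14.7 to 15.6 CPM), and replicate 2 in Cxcl1 (3.21 CPM). Among Synpo-/- DG controls, replicate 3 stood apart in Ccl2 (16.2 CPM) and Ccl7 (4.84 CPM), and replicate 5 in Cxcl1 (4.88 CPM). In Synpo-/- CA3 control these were replicate 3 in Ccl2 (18.3 CPM) and replicate 1 in Cxcl12 (12.4 CPM). In Synpo+/+ DG ECL, replicate 5 stood apart in Cxcl12 (7.55 CPM, others 18.8 to 22.8 CPM).

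In whole cultures, Synpo+/+ coIP ECL replicate 1 stood apart in Ccl2 (12.0 CPM) and Ccl7 (4.44 CPM), input replicate 1 in Cxcl1 in both control (2.21 CPM) and ECL (2.01 CPM), and control input replicate 5 in Cx3cl1 (157 CPM, others 77.9 to 93.7 CPM).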

How the results depend on the processing

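Counts of chemokine genes called, out of 10, are given here where they differ from those of the report by over 1.5 times or in which genes they hold, and the cause was not tested unless stated. DESeq2 called 2 genes for the lesion in Synpo+/+ CA3, 0 in Synpo-/- DG, 1 for genotype in control DG and 1 for genotype by lesion in CA3. Without the filter on low counts these were 3, 2, 1 and 1, with 1 for genotype in control CA3 and 2 for region in Synpo+/+ control. Removal of the length trend left 0 for the lesion in Synpo-/- CA3, 2 in Synpo-/- DG, and 0, 2 and 0 in the coIP sets, where Ccl4 reversed in Synpo+/+ control (0.17). With all 8 regional groups in 1 fit the lesion counts were 0 in Synpo+/+ CA3, 0 in Synpo-/- CA3 and 2 in Synpo-/- DG. For region in Synpo-/- control, that fit lost Ccl5 and Cxcl10 and gained Cx3cl1, and DESeq2 lost Cxcl10 and gained Cx3cl1. Under a mean normalized count of 300, which leaves out scarcer genes by construction, 1 remained for the lesion in Synpo+/+ DG, 0 in Synpo-/- DG and 0 in input, 0 for region in Synpo+/+ control, and 1, 1 and 0 in the coIP sets. That limit also lost Cxcl10 for region in Synpo-/- control. The input count was 3, with Ccl3 added, by DESeq2, without the filter, with the length trend removed and without ECL replicate 3. Xist-high libraries gave 3 in Synpo+/+ CA3, where 1 ECL library was left and was assumed to vary like the 2 controls, and 0 in Synpo-/- DG. In Synpo-/- CA3 they gave 1, which was Ccl4 in place of Ccl12.

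With the replicate number as a block, the count was 2 for genotype in control CA3, 2, 5 and 2 for region in Synpo+/+ ECL, Synpo-/- control and Synpo-/- ECL, and 7, 7 and 3 in the coIP sets of Synpo+/+ control, Synpo+/+ ECL and Synpo-/-. The labels do not say that a shared number marks a shared culture or, in the Synpo+/+ coIP sets, a shared lysate. Outside the coIP sets the correlations of same-numbered samples varied. Between DG and CA3 they were 0.0596 to 0.556 in 6 pairs of Synpo-/- control and -0.285 to -0.213 in 2 pairs of Synpo+/+ control. Such values cannot settle whether samples of a number share a culture. Leaving out each library in turn gave 0 to 4 (Synpo+/+ CA3), 1 to 2 (Synpo+/+ DG), 0 to 1 (Synpo-/- CA3), 0 to 3 (Synpo-/- DG) and 2 to 3 (input) for the lesion, 0 to 1 for genotype in control CA3 and in control DG, 1 to 2, 0 to 1, 2 to 4 and 1 to 2 for the 4 region comparisons, and 4 to 7, 4 to 8 and 0 to 3 for the coIP sets. A group of 2 libraries was left with a single one in such fits. Over all alternatives and single genes, 3715 values kept their side of the threshold, 59 newly passed it, 75 no longer passed and 1 reversed. Direction was compared only where a gene was called in at least 1 of the fits. Uncalled values that changed sign are therefore among the 3715. Ccl3, for example, ran from -0.10 to 1.39 for the lesion in Synpo+/+ CA3. Cxcl1 and Ccl7 had the fewest reads, which limits the precision of their values.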
